A study of Mus musculus with 4 samples.

Results

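The Wnt pathway was examined in the mouse cerebellum as 47 genes chosen by name, namely 7 ligands, 1 gene for ligand secretion, 10 Frizzled receptors, 2 co-receptors, 3 alternative receptors, 3 genes of receptor turnover, 7 secreted antagonists, 10 cytoplasmic components and 4 nuclear factors. A gene was kept if its level reached 1 CPM (the usual unit of counts scaled to a common library size, here with TMM factors) in at least 2 libraries, and 44 of the 47 were kept, out of 55341 genes counted and 16617 tested. RNA-seq had been carried out on cerebellar tissue at postnatal day 14 (P14), when young granule neurons are migrating inward and maturing. WT mice were Kdm6b fl/fl, and Kdm6b-cKO mice were Atoh1-Cre; Kdm6b fl/fl littermates, with 2 libraries for each genotype and 1 mouse for each library. Both genotypes thus carried the loxP-flanked allele, and only the cKO carried Cre. Atoh1 is expressed in granule neuron precursors. Cell types that do not descend from Atoh1-expressing cells, glia and vessels included, were expected to keep an intact Kdm6b. The comparison addressed how gene expression changed when granule neuron precursors lost KDM6B, an enzyme that demethylates lysine 27 of histone H3.

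Wnt ligands are secreted glycoproteins that bind a Frizzled receptor together with LRP5 or LRP6. In the canonical branch this binding stops a cytoplasmic complex of AXIN, APC and GSK3 from marking beta-catenin for destruction, and beta-catenin then enters the nucleus and acts with TCF and LEF factors at target genes. Other branches run through ROR and RYK receptors or through the planar polarity proteins, and secreted antagonists such as the SFRP, DKK and WIF proteins hold the signal back. In the cerebellum, WNT7A from granule neurons is known to remodel incoming mossy fibre axons and to promote synapse formation, and WNT7A and WNT7B act on brain endothelium.

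The libraries held from 8811849 to 9892363 counts in genes, and the 10 markers of cerebellar tissue summed to 6998 to 7762 CPM in each, against 10.5 to 15.6 CPM for 6 forebrain markers. Kdm6b stood at 154 CPM in both WT libraries and at 127 and 119 CPM in cKO 1 and cKO 2 (log2 fold change -0.33, SE 0.08, adjusted p = 0.0162 by edgeR's quasi-likelihood test). The counts covered all exons of Kdm6b, the floxed ones being only a part of them. By Xist and the Y-linked genes, WT 1 came from a male and WT 2, cKO 1 and cKO 2 from females, so sex and genotype could not be fully told apart. The 10 choroid plexus markers summed to 714 CPM in cKO 1 and to 39.4 to 45.6 CPM in the other libraries. In bulk tissue, fewer cells of a type and less RNA per cell cannot be told apart.

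Few genes of the pathway passed the test between genotypes at P14. By edgeR's quasi-likelihood test with adjustment over all 16617 tested genes (threshold 0.05), 2 of the 44 kept genes rose in the cKO, 0 fell and 42 did not pass. The 2 that rose were Sfrp1, a secreted Wnt antagonist, and Nkd1, a cytoplasmic inhibitor that binds Dishevelled and is itself a Wnt target. They made up 4.55% of the kept genes, and 1.87% of all tested genes passed in that direction, while 2.17% of all tested genes passed as lower in the cKO. An unadjusted p under 0.05 was reached by 7 of the 44 (15.9%), against 16.3% of all tested genes. Both cKO libraries lay above both WT libraries for 11 of the 44 (25.0%), against 23.2% of all tested genes, and below both for 9 of the 44 (20.5%), against 23.2%. The shares by unadjusted p and by overlap were near those of all tested genes, and the share of higher calls rested on 2 genes. The median log2 fold change of the kept genes was 0.04, beside 0.00 for all tested genes, and their median absolute log2 fold change was 0.18, beside 0.15.

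**Figure D1:**
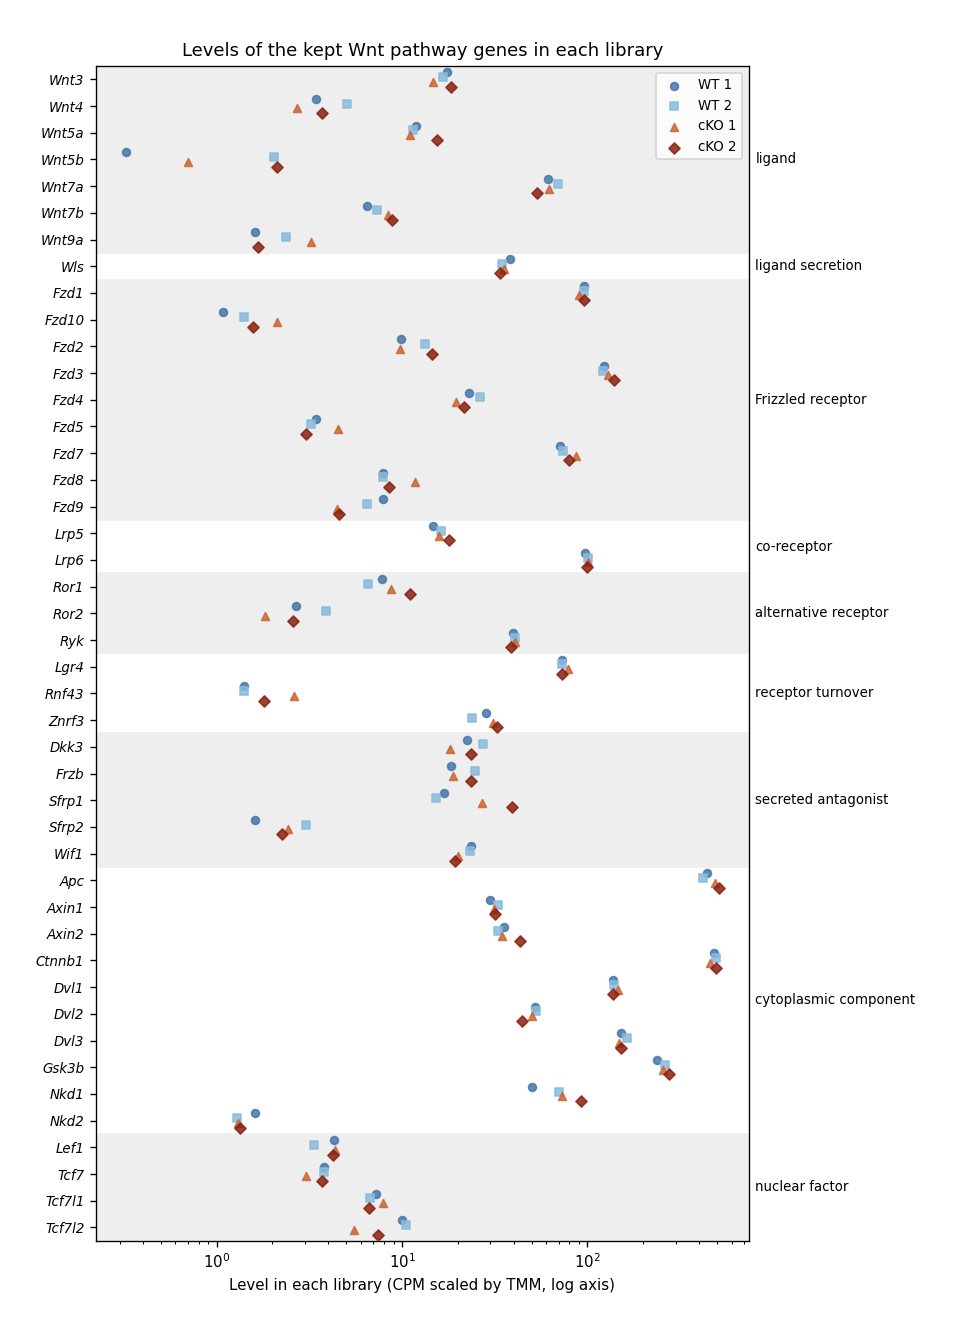
Level of each of the 44 kept Wnt pathway genes in each of the 4 libraries, in CPM on a log axis, with 1 point per library and genes grouped by role. Sfrp1 separates most clearly, with both WT libraries near 16 CPM and the cKO libraries at 27.0 and 39.1 CPM, while Ctnnb1, Lrp6, Ryk and Lgr4 show points that nearly coincide.

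The promoters of Nkd1, Fzd7 and Draxin are shown because TCF and LEF factors, the nuclear end of the pathway, bind sites built on the letters CTTTG. Nkd1 rose, Draxin is a Wnt inhibitor outside the 47 genes that also rose, and Fzd7 was chosen after its window was seen to hold these letters. Sequences are from RefSeq on GRCm38.p6 and run from 250 bases before to 50 after the annotated start, 5′ to 3′ on the strand of the gene, with CTTTG on either strand (CAAAG when read on the other) in capitals. The windows lie at chr8:88527383-88527682 (plus strand) for Nkd1, chr1:59481897-59482196 (plus strand) for Fzd7 and chr4:148130649-148130948 (minus strand) for Draxin.
Nkd1: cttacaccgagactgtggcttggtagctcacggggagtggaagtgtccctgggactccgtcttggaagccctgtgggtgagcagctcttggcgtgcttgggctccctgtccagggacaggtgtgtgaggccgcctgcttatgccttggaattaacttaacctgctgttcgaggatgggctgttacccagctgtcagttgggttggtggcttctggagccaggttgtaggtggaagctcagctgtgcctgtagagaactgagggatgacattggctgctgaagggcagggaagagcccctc
Fzd7: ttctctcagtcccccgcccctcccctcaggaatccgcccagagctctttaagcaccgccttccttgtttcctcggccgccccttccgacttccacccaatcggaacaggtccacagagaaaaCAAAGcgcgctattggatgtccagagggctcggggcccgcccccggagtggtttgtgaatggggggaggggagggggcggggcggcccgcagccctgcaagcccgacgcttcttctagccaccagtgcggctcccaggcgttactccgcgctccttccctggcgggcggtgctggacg
Draxin: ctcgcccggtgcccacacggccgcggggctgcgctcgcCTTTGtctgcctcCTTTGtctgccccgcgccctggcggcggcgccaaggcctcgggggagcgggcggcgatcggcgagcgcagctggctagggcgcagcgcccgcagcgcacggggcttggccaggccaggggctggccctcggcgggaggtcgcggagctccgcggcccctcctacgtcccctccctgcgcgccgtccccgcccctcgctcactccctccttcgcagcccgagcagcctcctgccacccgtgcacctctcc
The Draxin window held 2 matches, 212 and 199 bases before the start, the Fzd7 window held 1 match, and the Nkd1 window none. The windows of Wnt7a, Fzd9 and Ephb3, the last of which also rose, held none either and are not shown. No single window was looked at for Apc2, Daam2, Apc, Tcf7l2 or Znrf3. The start used for Nkd1 lies 6279 bases into the gene as GENCODE draws it, so another start of Nkd1 may have other letters, and the start used for Fzd7 (59482147) lies upstream of the GENCODE start of that gene (59482424). Of the 47 genes, 34 had an entry and Sfrp1 had none. CTTTG occurred in 21 of their 43 promoter entries (48.8%), beside 53.9% of all 32851 promoters of this length, so the letters were about as common in the Wnt genes as elsewhere. A match is a description of the sequence and not a bound site.

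The precision of these comparisons followed the level of the gene. The 95% interval of the log2 fold change lay within 0.5 of zero on both sides for 19 of the 44 genes, all of them among the 27 genes with a mean above 10 CPM in both groups. For the other 25 genes a change beyond 0.5 on the log2 scale in at least 1 direction lay within the interval, and all 17 genes at lower levels were among them. All kept genes but Wnt5b reached 1 CPM in every library. The 3 genes not kept were Fzd6, which had 0 counts in all 4 libraries, Sfrp5, which had 3 and 2 counts in WT 1 and WT 2 and 7 and 0 in cKO 1 and cKO 2, and Dkk2, which had 4 and 2 counts in the WT and 3 and 5 in the cKO libraries. For Fzd6, a count of 0 allows a level of up to 0.302 to 0.336 CPM per library (3 counts, counting error only). This bound holds only if reads of Fzd6 were assigned to it in the counting, which was not tested. Entries that name no gene made up 59.5% to 61.0% of a file. As counted, Fzd6, Sfrp5 and Dkk2 were not detectable above a few counts at this depth in either genotype.

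Wnt7a led the ligands. Its level per kilobase of exon, the scale used here to compare genes, was 20.6 CPM per kb in WT, beside 5.54 for Wnt3, 1.49 for Wnt5a, 1.41 for Wnt7b, 1.02 for Wnt4, 0.60 for Wnt9a and 0.447 for Wnt5b. Wnt7a thus accounted for a mean of 66.2% of the summed level of these 7 ligands in WT and 62.6% in the cKO. Its share was 66.0% and 66.4% in WT 1 and WT 2, and 66.7% and 58.4% in cKO 1 and cKO 2, so the groups overlapped. Ligands outside the 47 genes, such as Wnt2b at 1.26 CPM per kb in WT, are not in this sum. The study showed Wnt7a as a late gene in granule neurons maturing in culture, whereas the values here are from P14 tissue. The level of Wnt7a was 61.4 and 69.2 CPM in WT 1 and WT 2, and 62.3 and 53.2 CPM in cKO 1 and cKO 2. cKO 1 lay between the WT libraries and cKO 2 below both, so the groups overlapped. The log2 fold change was -0.18 (SE 0.10, 95% interval -0.38 to 0.03, adjusted p = 0.417), and the interval spanned zero.

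None of the other 6 ligands passed the test either. Wnt3, which is expressed in Purkinje cells and acts in canonical signalling, averaged 17.1 ± 0.598 CPM in WT and 16.5 ± 2.58 CPM in the cKO (SD, n = 2 each). Wnt5a, a ligand of the ROR receptors, averaged 11.7 ± 0.296 and 13.2 ± 3.01 CPM. Wnt7b, the close relative of Wnt7a, was the one ligand whose groups did not overlap, with 6.47 and 7.34 CPM in WT and 8.37 and 8.85 CPM in the cKO, and its interval reached from -0.16 to 0.79 on the log2 scale. Wnt4, Wnt5b and Wnt9a stayed at or under 5.08 CPM in every library. Wnt5b differed as much within a genotype as between them, at 0.324 and 2.05 CPM in WT and 0.706 and 2.13 CPM in the cKO. Wls, the carrier that brings Wnt proteins to the cell surface, averaged 36.4 ± 2.57 CPM in WT and 34.5 ± 1.18 CPM in the cKO.

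The Frizzled receptors were led by Fzd1, with 37.7% of their summed level per kilobase in WT, followed by Fzd7 with 26.5% and Fzd3 with 15.7%. In the cKO these shares were 35.5%, 29.6% and 16.9%. None of the 9 kept receptors passed the test. Fzd7, a receptor of the canonical branch found in progenitor cells of many tissues, had 71.5 and 73.8 CPM in WT against 87.2 and 79.3 CPM in the cKO. Both cKO libraries lay above the WT libraries, but the log2 fold change of 0.20 (SE 0.08) had an adjusted p of 0.238. Fzd9 pointed the other way, with 7.87 and 6.48 CPM in WT and 4.44 and 4.59 CPM in the cKO. The cKO libraries were close to each other and below both WT libraries, with a log2 fold change of -0.67 (SE 0.26, adjusted p = 0.192), and the share of Fzd9 among the Frizzled receptors was 5.18% in WT and 3.17% in the cKO.

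The remaining Frizzled receptors had intervals that spanned zero. Fzd3, an axon guidance receptor of the planar polarity branch, stood at 122 CPM in both WT libraries and at 129 and 139 CPM in the cKO (95% interval -0.02 to 0.30 on the log2 scale). Fzd1 was at 95.6 and 96.2 CPM in WT against 89.5 and 95.3 CPM in the cKO. Fzd4, the receptor of Norrin on vessels, averaged 24.7 ± 2.54 CPM in WT and 20.6 ± 1.46 CPM in the cKO. Endothelial markers moved little, with sums of 253 to 263 CPM over the 4 libraries and 0 of 10 past the test. Fzd2, Fzd5, Fzd8 and Fzd10 had group means from 1.24 to 12.2 CPM.

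Of the co-receptors, Lrp6 stayed at 97.3 to 100.5 CPM in the 4 libraries and held 82.0% of the pair's summed level per kilobase in WT and 80.8% in the cKO. Its 95% interval was -0.15 to 0.18 on the log2 scale. Lrp5 averaged 15.4 ± 1.08 CPM in WT and 16.9 ± 1.48 CPM in the cKO. Among the alternative receptors, Ryk, which has an inactive kinase domain, was level at 40.1 ± 0.717 and 39.8 ± 1.31 CPM. The related Ror1 and Ror2 pointed in opposite directions without passing the test. Ror1 was at 7.77 and 6.59 CPM in WT against 8.77 and 11 CPM in the cKO (log2 fold change 0.46, SE 0.23, adjusted p = 0.326), and Ror2 was at 2.7 and 3.89 CPM in WT against 1.81 and 2.58 CPM in the cKO (log2 fold change -0.59, SE 0.39, adjusted p = 0.50).

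ZNRF3 and RNF43 are ubiquitin ligases that remove Frizzled receptors from the surface, and LGR4 is the R-spondin receptor that counters them. Znrf3 had 28.4 and 23.9 CPM in WT against 31.0 and 32.5 CPM in the cKO. Its cKO libraries lay above both WT libraries, with a log2 fold change of 0.28 (SE 0.13) and an adjusted p of 0.274. Rnf43 was low, at 1.40 CPM in both WT libraries and at 2.62 and 1.79 CPM in the cKO, with an interval from -0.29 to 1.60. Lgr4 averaged 73.2 ± 0.132 CPM in WT and 75.8 ± 3.58 CPM in the cKO.

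**Figure D2:**
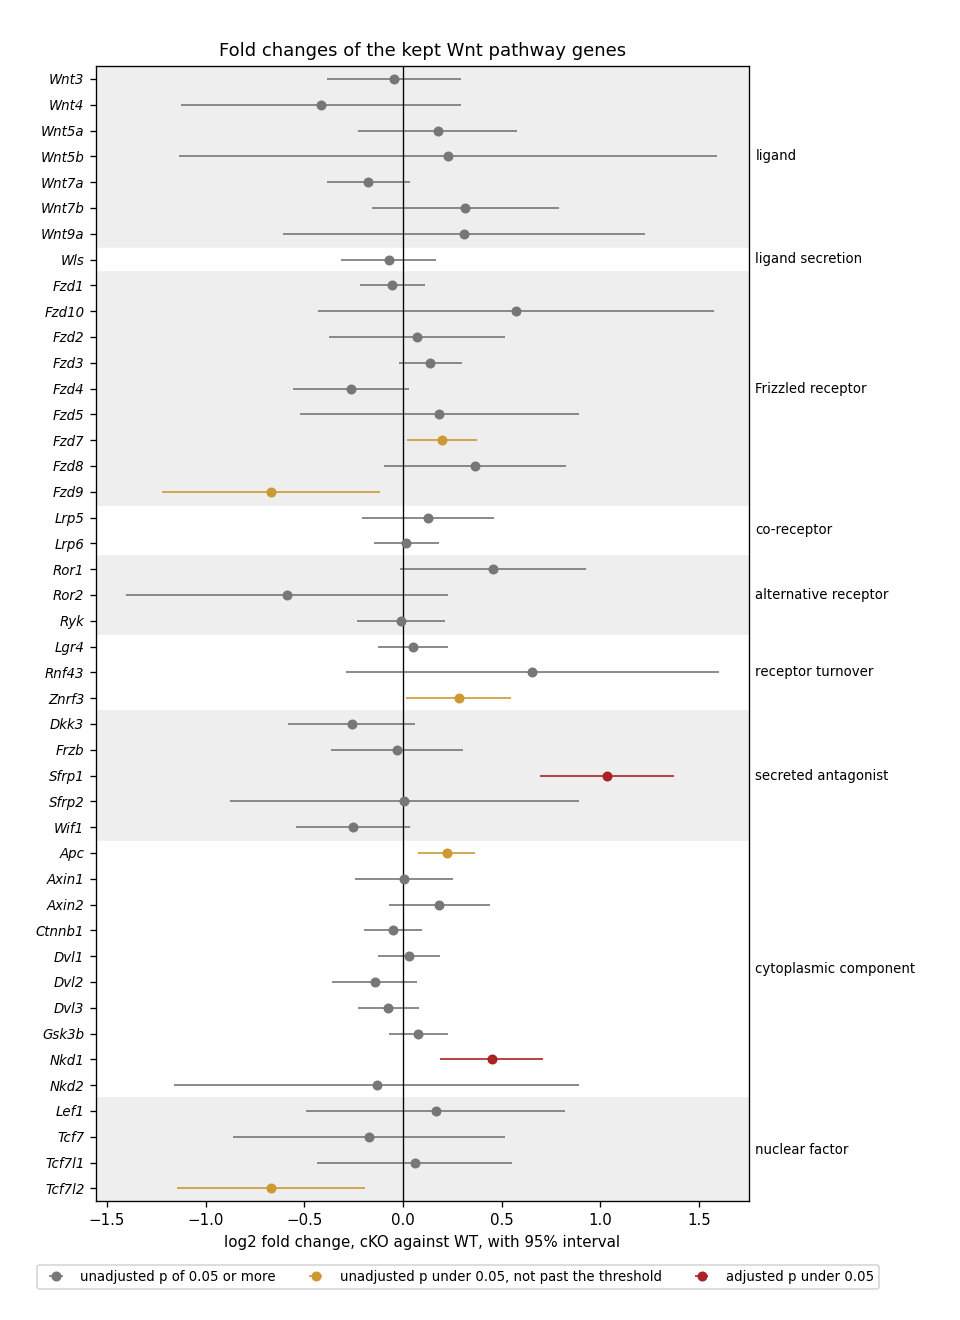
log2 fold change (cKO against WT) of each kept gene with its 95% interval, grouped by role and coloured by whether the gene passed the adjusted test (red), had only an unadjusted p under 0.05 (amber) or neither (grey). Sfrp1 and Nkd1 are the 2 genes in red, 5 genes are amber, and the interval spans zero for all genes in grey.

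The clearest difference in the pathway lay among the secreted antagonists. Sfrp1 encodes a secreted protein with a Frizzled-like domain that binds Wnt ligands (ENSMUSG00000031548.7, GRCm38 chr8:23411502-23449632, plus strand). Its level was 16.8 and 15.3 CPM in WT 1 and WT 2, from 156 and 142 counts, and 27.0 and 39.1 CPM in cKO 1 and cKO 2, from 268 and 349 counts. Both cKO libraries lay above both WT libraries, and cKO 2 stood well above cKO 1. Sfrp1 rose by 1.03 on the log2 scale, 2.05-fold (SE 0.16, 95% interval 0.70 to 1.37, adjusted p = 0.000579 by edgeR's quasi-likelihood test). Without WT 1 or WT 2 the call held, at log2 fold changes of 1.10 and 0.97. It was lost when either cKO library was left out, at a log2 fold change of 1.28 without cKO 1 (adjusted p = 0.237) and 0.75 without cKO 2 (adjusted p = 0.493), where no gene of the whole table passed.

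None of the other 4 kept antagonists passed the test. Wif1, a secreted inhibitor that binds Wnt ligands directly and is typical of astrocytes, was at 23.6 and 23.3 CPM in WT against 20.1 and 19.3 CPM in the cKO (log2 fold change -0.25, SE 0.14, adjusted p = 0.389). Dkk3, a divergent member of the Dickkopf family, averaged 24.9 ± 3.45 CPM in WT and 20.8 ± 3.96 CPM in the cKO. Frzb averaged 21.5 ± 4.37 and 21.1 ± 3.23 CPM, and Sfrp2 2.32 ± 0.994 and 2.33 ± 0.126 CPM. The make-up of the secreted antagonists moved with Sfrp1. It held 14.3% and 11.5% of their summed level per kilobase in WT 1 and WT 2, and 22.7% and 27.6% in cKO 1 and cKO 2. Wif1, which had the largest share in WT with 33.8%, had 27.5% in the cKO, while the total of the 7 antagonists was 27.0 and 30.4 CPM per kb in WT and 27.2 and 32.3 in the cKO, with overlapping groups.

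**Figure D3:**
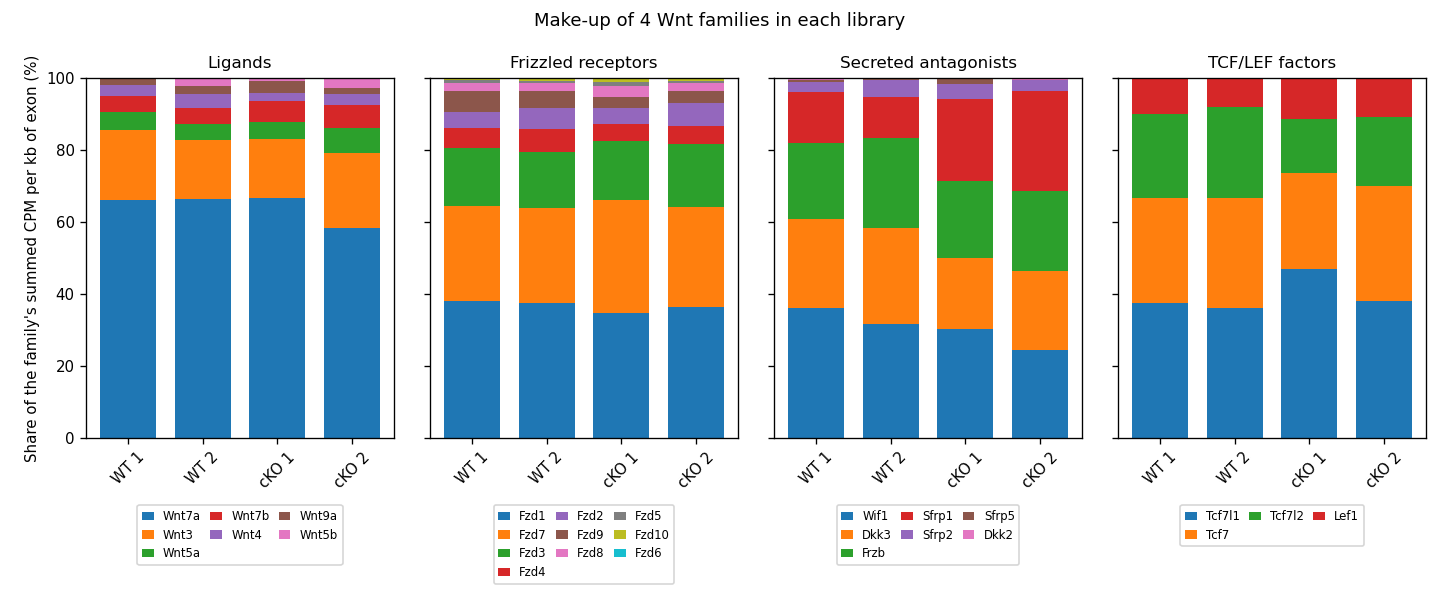
Share of each gene in the summed level of its family, in percent of CPM per kb of exon, as stacked bars with 1 bar per library for the ligands, the Frizzled receptors, the secreted antagonists and the TCF/LEF factors. Wnt7a and Fzd1 lead their families in all 4 libraries, and the segment of Sfrp1 among the antagonists is larger in the cKO, at 14.3% and 11.5% in WT against 22.7% and 27.6% in the cKO.

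Nkd1 was the other gene that rose (ENSMUSG00000031661.12, GRCm38 chr8:88521354-88594884, plus strand). Its level was 50.2 and 70.6 CPM in WT 1 and WT 2, from 465 and 654 counts, and 73.1 and 92.1 CPM in cKO 1 and cKO 2, from 725 and 822 counts. The groups did not overlap, but WT 2 lay much nearer to cKO 1 than to WT 1. The log2 fold change was 0.45 (SE 0.12, 95% interval 0.19 to 0.71, adjusted p = 0.0454), just inside the threshold. The call was lost without WT 1, the library with the male pattern, at a log2 fold change of 0.22 (adjusted p = 0.528), without cKO 1 (0.61, adjusted p = 0.377) and without cKO 2 (0.28, adjusted p = 0.658). DESeq2 gave an adjusted p of 0.651 for Nkd1. Its relative Nkd2 was at 1.30 to 1.62 CPM in every library.

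Of the cytoplasmic core of the canonical pathway, Ctnnb1, Gsk3b, Axin1 and the Dishevelled genes had similar levels in both genotypes. Ctnnb1, which encodes beta-catenin, had the highest level per kilobase of all 47 genes, 94.3 CPM per kb in WT and 91.1 in the cKO, and its log2 fold change was -0.05 (95% interval -0.20 to 0.10). Gsk3b, the kinase that phosphorylates beta-catenin for destruction, averaged 251 ± 17.9 CPM in WT and 265 ± 14.9 CPM in the cKO. The scaffold Axin1 averaged 31.5 CPM in both groups (SD 2.08 and 0.25). Dvl1 and Dvl3, which relay the signal from Frizzled receptors, averaged 139 ± 1.48 and 158 ± 7.98 CPM in WT and 141 ± 6.26 and 150 ± 3.02 CPM in the cKO. Dvl2 was the least abundant Dishevelled gene, at 52.3 ± 0.498 and 47.3 ± 4.5 CPM. These genes had 95% intervals within 0.5 of zero.

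Apc, a scaffold of the destruction complex, was at 438 and 418 CPM in WT against 485 and 513 CPM in the cKO. Both cKO libraries lay above both WT libraries, and the difference was small but tightly measured, with a log2 fold change of 0.22 (SE 0.07, 95% interval 0.08 to 0.37). Its adjusted p was 0.0834, and it passed only when libraries were scaled by their size alone (adjusted p = 0.0385). Axin2, the most widely used readout of canonical signalling, was at 35.4 and 32.9 CPM in WT against 34.7 and 43.1 CPM in the cKO. cKO 1 lay between the WT libraries, and the log2 fold change was 0.18 (SE 0.12, 95% interval -0.07 to 0.44, adjusted p = 0.499).

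The nuclear factors were low, summing to 4.28 to 4.91 CPM per kb in the 4 libraries. Tcf7l2, a TCF factor of the thalamus, the oligodendrocyte lineage and other cells, was at 10.03 and 10.5 CPM in WT 1 and WT 2 and at 5.54 and 7.39 CPM in cKO 1 and cKO 2. Both cKO libraries lay below both WT libraries, with a log2 fold change of -0.67 (SE 0.23, 95% interval -1.14 to -0.19), and the adjusted p was 0.115. Its share among the 4 factors was 24.3% in WT and 16.9% in the cKO. The sum of the 10 oligodendrocyte markers was 10860 and 10336 CPM in WT and 9534 and 9590 CPM in the cKO, where 2 markers rose and 2 fell, and the part of this difference in Tcf7l2 was not tested. Tcf7, Tcf7l1 and Lef1 had group means from 3.36 to 7.24 CPM, with intervals that spanned zero. Exons of 11 of the 47 genes overlap another gene, Lef1 and Ctnnb1 included, and those levels are uncertain. None of the 8 genes plotted with each library left out is among them.

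**Figure D4:**
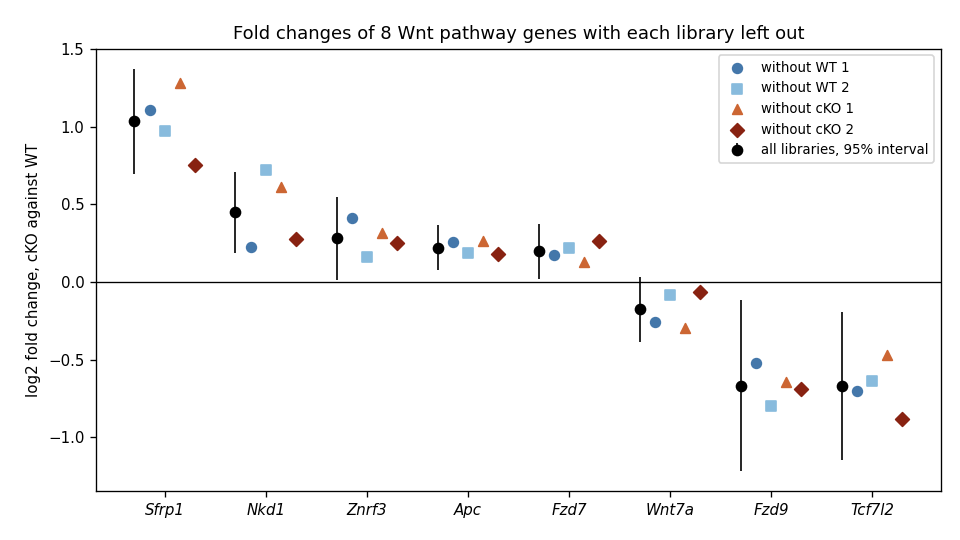
log2 fold change (cKO against WT) of 8 genes, fitted on all 4 libraries (black, with the 95% interval) and with each library left out in turn (coloured). All 8 keep their sign in every fit. Sfrp1 ranges from 0.75 without cKO 2 to 1.28 without cKO 1, and Nkd1 from 0.22 without WT 1 to 0.72 without WT 2.

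A further 92 Wnt pathway genes outside the 47 were counted, and 75 were tested. Of these 75, 3 rose, 1 fell and 71 did not pass, while 1.87% of all tested genes rose and 2.17% fell. An unadjusted p under 0.05 by edgeR's quasi-likelihood test was reached by 17 of the 75, against 16.3% of all tested genes. Both cKO libraries lay above both WT libraries for 25 of the 75, against 23.2% of all tested genes. They lay below both for 14 of the 75, against 23.2%. The median log2 fold change of the 75 was 0.04, and 5 of the 92 had 0 counts in every library, Celsr3 of the planar polarity branch among them. As for Fzd6, whether reads of these genes were lost in the counting was not tested. Draxin rose most clearly. It encodes a secreted axon guidance protein that also inhibits canonical Wnt signalling. Its level was 26.2 and 34.4 CPM in WT and 48.1 and 66.5 CPM in the cKO, and as for Sfrp1, the groups did not overlap and cKO 2 was the highest library. The log2 fold change was 0.91 (SE 0.14, adjusted p = 0.000556), and it was lost as a call without either cKO library (adjusted p = 0.272 without cKO 1 and 0.493 without cKO 2).

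Ephb3, an ephrin receptor and Wnt target gene, was at 7.77 and 7.56 CPM in WT against 12.6 and 14.7 CPM in the cKO (log2 fold change 0.83, SE 0.20, adjusted p = 0.0200). Apc2, the brain-enriched relative of Apc, was at 339 and 356 CPM in WT against 404 and 449 CPM in the cKO (log2 fold change 0.30, SE 0.07, adjusted p = 0.0232). For both genes the 2 cKO libraries stood above the 2 WT libraries. Daam2, a formin listed here with the planar polarity branch and also expressed in the oligodendrocyte lineage, was the gene that fell. It had 106 and 101 CPM in WT and 83.1 and 81.4 CPM in the cKO (log2 fold change -0.33, SE 0.08, adjusted p = 0.0200 by edgeR's quasi-likelihood test). The calls of Ephb3 and Daam2 were lost in DESeq2, without a filter on low counts and with any single library left out, and that of Apc2 without a filter and without WT 1, cKO 1 or cKO 2.

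The counts by role are small and stand beside 1.87% higher and 2.17% lower over all tested genes. Here 0 of 9 tested ligands and secretion genes outside the 47 passed, 0 of 10 receptors and partners, 1 of 5 extracellular antagonists (Draxin), 1 of 18 cytoplasmic components (Apc2), 1 of 9 planar polarity genes (Daam2), 0 of 14 nuclear components and 1 of 10 target genes (Ephb3). Porcn, the acyltransferase that lipid-modifies Wnt proteins, was at 164 and 163 CPM in WT against 183 and 171 CPM in the cKO (adjusted p = 0.466). Among the target genes, Sp5 was at 15.4 and 16.6 CPM in WT against 8.77 and 14.1 CPM in the cKO (log2 fold change -0.49, adjusted p = 0.203), and Ccnd1 at 38.7 to 41.5 CPM in the 4 libraries. Of the canonical readouts given here, Nkd1 and Ephb3 passed the test as higher, while Axin2, Sp5 and Ccnd1 did not pass in either direction. Over all 10 target genes the log2 fold change lay above 0 for 6 and below 0 for 4, and 9 did not pass. Among these 9 it was 1.14 for Birc5 (adjusted p = 0.248) and -0.33 for Fgf20 (adjusted p = 0.274, both by edgeR's quasi-likelihood test).

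The sums of the newborn neuron and granule progenitor markers were also higher in the cKO. The 10 newborn neuron markers, such as Dcx and Sox11, summed to 941 and 1027 CPM in WT 1 and WT 2 and to 1254 and 1698 CPM in cKO 1 and cKO 2, and 7 of the 10 rose. The 10 granule progenitor markers summed to 334 and 378 CPM in WT and to 407 and 519 CPM in the cKO, and 5 of the 9 tested rose. The 10 mature granule neuron markers summed to 5583 and 5749 CPM in WT and to 4650 and 4116 CPM in the cKO, and 8 fell. The newborn and progenitor sums were highest in cKO 2 and next highest in cKO 1, as were Sfrp1, Nkd1, Draxin, Ephb3 and Apc2. These genes had been named because they were higher in the cKO, so only the order of cKO 1 and cKO 2 was free. The share of all tested genes with that order was not counted. Single markers did not all follow their sums. Both cKO libraries lay above both WT libraries for 9 of the 10 newborn markers but for 4 of the 9 tested progenitor markers, and Gli1 (17.0 and 17.5 CPM in WT, 16.2 and 16.4 CPM in the cKO) lay below. These lists had been drawn up with results of these libraries known and are no independent evidence of direction, and the part of cell make-up in the levels of these genes was not tested. The 10 Bergmann glia and astrocyte markers summed to 4460 and 4406 CPM in WT and to 3992 and 3921 CPM in the cKO, with 4 lower and 1 higher. The higher one was Fabp7, at 89.2 and 92.9 CPM in WT and 114 and 166 CPM in cKO 1 and cKO 2. Of the oligodendrocyte markers 2 fell and 2 rose. Those that rose were Gpr17 (137 and 120 CPM in WT, 150 and 175 CPM in the cKO) and Bcas1 (112 and 103 CPM in WT, 126 and 143 CPM in the cKO). All of these glial markers that rose were thus also highest in cKO 2.

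**Figure D5:**
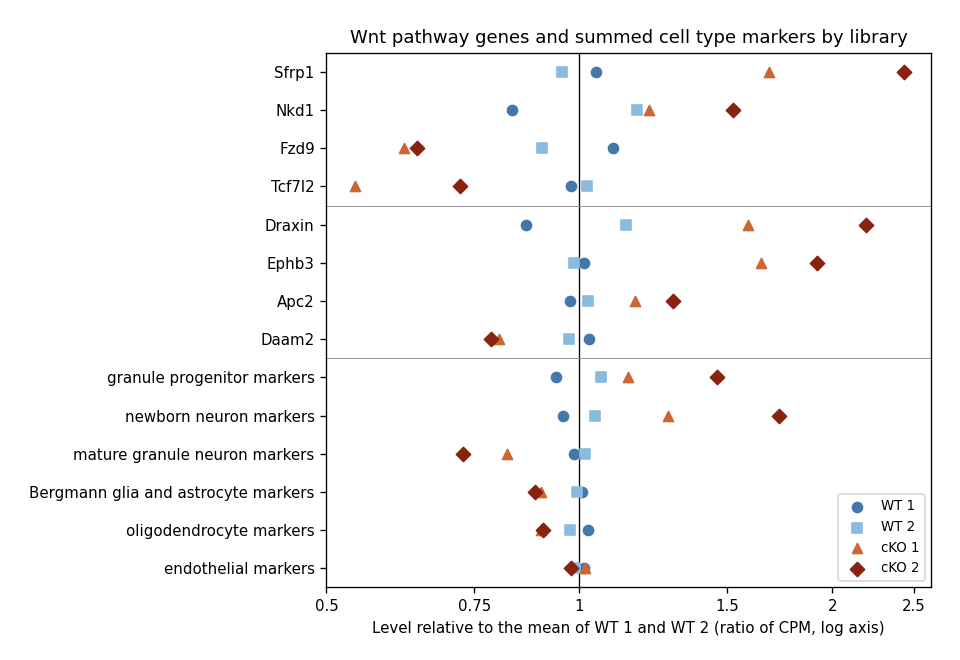
Level of 8 Wnt pathway genes and the summed level of 6 marker lists in each library, as a ratio to the mean of the 2 WT libraries on a log axis, with 1 point per library. Sfrp1 reaches 1.68 in cKO 1 and 2.43 in cKO 2, Nkd1 1.21 and 1.52, the newborn neuron and granule progenitor sums also lie highest in cKO 2, and the endothelial sum stays near 1 in all 4 libraries.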

How the data were processed

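The samples were cerebella of WT and Kdm6b-cKO mice at P14 (2 libraries each, each from an individual mouse per the study's methods), grouped and numbered by their titles. The authors enriched RNA for poly(A), trimmed the reads with Trimmomatic 0.38, aligned them to GRCm38 with STAR 2.7.2b and counted them over exons with HTSeq. The strand setting of the counting is not given in the sources used here. Per gene symbol, the deposited values are raw counts. Entries that name no gene made up 59.5% to 61.0% of a file and were left out.

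Genes were filtered with filterByExpr and scaled by TMM (factors 0.986 to 1.02) in edgeR 4.0.16 (R 4.3.3), and cKO was compared with WT by the two-sided quasi-likelihood test, with Benjamini-Hochberg adjustment over all tested genes and a threshold of 0.05. The script was checked on simulated counts. Replicates were not identical within counting error (chi-square over degrees of freedom 3.56 in WT and 3.99 in cKO), and the biological coefficient of variation was 7.33%. Exon lengths and coordinates came from GENCODE M21.

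The members and lists were chosen with earlier results of these data known. Values in every library were given for members with an unadjusted p under 0.05 and for Wnt7a. Other genes given in every library, such as Wif1, Fzd3, Ror1, Ror2, Axin2, Porcn and Sp5, were chosen after their values were seen. The same holds for Ccnd1, Birc5 and Fgf20. Of the further Wnt genes, those past the threshold were named. Other scalings and filters, DESeq2 1.42.0, limma 3.58.1 (voom), a replicate block and leaving out each library were run as alternatives.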

Additional observations from a re-analysis of the deposited data

How the results depend on the processing

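With 2 libraries per genotype, each call rests on few animals, and 95% intervals reached past 0.5 on the log2 scale for 25 of the 44 genes. The count of 2 Wnt genes higher became 1 with DESeq2 size factors in edgeR, without a filter on low counts, with a filter of 1 CPM in 2 libraries and in DESeq2 (1 in each, Sfrp1). It was 3 with library size alone and 2 in limma-voom, and ranged from 0 to 2 with a library left out. It was 1 without WT 1, and 0 without cKO 1 or cKO 2, where 0 of all tested genes passed (2315 and 1718 had an unadjusted p under 0.05, and 5 and 4 of the Wnt genes). In those fits the lone library of a group is taken to vary as the other genotype does. The count of 0 lower held in all 11 alternatives run; 3 genes had an unadjusted p under 0.05 in DESeq2, which gave no adjusted p for Tcf7l2 and Fzd9. Of the further Wnt genes, the 3 higher became 1 without a filter and ranged from 0 to 4 with a library left out, and the 1 lower became 0 without a filter and in DESeq2, 4 with a replicate block, and 0 to 1 with a library left out. With the replicate block 2 Wnt genes were higher. Same-numbered libraries did not deviate together (correlation 0.043). That value cannot show whether same-numbered mice shared a litter or were processed together, and the labels do not give this. Over all genes, 671 calls became 1130 with the replicate block, 320 in DESeq2 and 177 without a filter, where 28952 genes were tested. The median log2 fold change of the 44 genes ranged from 0.00 to 0.07. No named gene changed sign, and 102 named-gene values kept their side of the threshold, 27 lost it and 1 gained it (Apc). The cause of these losses was not tested.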

Other observations

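Of the genes of vascular Wnt signalling outside the 47, 4 were looked at after their values were seen, and none passed edgeR's quasi-likelihood test. Reck and Adgra2, which serve as co-receptors for WNT7A and WNT7B on brain endothelium, were at 13.1 to 15.4 CPM and 20.3 to 24.2 CPM in the 4 libraries, with log2 fold changes of 0.08 (95% interval -0.27 to 0.43) and 0.04 (-0.26 to 0.34). Tspan12, a partner of the Norrin receptor, was at 15.1 and 13.2 CPM in WT against 16.4 and 15.9 CPM in the cKO, with both cKO libraries above both WT libraries (log2 fold change 0.19, 95% interval -0.15 to 0.54). Ndp, which encodes Norrin, was at 8.85 and 8.64 CPM in WT against 8.16 and 5.26 CPM in the cKO (log2 fold change -0.37, 95% interval -0.88 to 0.14, adjusted p = 0.494), with both cKO libraries below both WT libraries.

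Some of the rarest Wnt genes had the widest differences without passing. Wnt6 had 16 and 23 counts in WT and 4 and 7 in the cKO (log2 fold change -1.82, SE 0.56, adjusted p = 0.0723), and Wnt10b had 11 and 14 counts in WT and 34 and 24 in the cKO (log2 fold change 1.18, SE 0.43, adjusted p = 0.148). These genes were chosen after their values were seen. Sostdc1, an extracellular antagonist, was not tested and had 45 counts in cKO 1 against 7, 2 and 4 in WT 1, WT 2 and cKO 2. cKO 1 was also the library with the high sum of choroid plexus markers, and their part in that value was not tested.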
